A study of Mus musculus with 2 samples.

Results

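Mir139, Mir140, Mir149, Mir151, Mir191 and Mir425 are 6 well-expressed microRNA genes that lie inside longer genes, and they are described here with those host genes in mouse gastrocnemius, the large calf muscle. They were picked by symbol, after their levels in these same libraries were known, from 2202 microRNA genes with a deposited count. The material was total RNA of gastrocnemius from male B6CASTF1/J mice aged 36 days, hybrids of C57BL/6J with the CAST strain. The 2 libraries, replicates 1 and 2, form a single group, come from 2 differently numbered males by their labels, which give both the same donor entry, and carry no treatment. Values are reads counted on a gene's own strand per 1000000 such reads (CPM), as mean ± SD with n = 2, and positions are those of mm10 with GENCODE M21.

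An intronic microRNA is cut from the transcript of its host gene, so host and microRNA can share a promoter. Drosha releases a hairpin, Dicer trims it to a duplex, and 1 or both arms then guide Argonaute to messenger RNAs that match the seed, which is bases 2 to 8 of the arm. The deposited counts are per hairpin gene, so the 5p and the 3p arm are not told apart, and no host messenger RNA was measured in these tables.

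The sequences below show the guides that these genes can give rise to and their seeds. Mature arms are written 5′ to 3′ from RefSeq (GRCm38.p6), with the seed in capitals.
miR-139-5p: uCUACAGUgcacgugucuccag
miR-139-3p: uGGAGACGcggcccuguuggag
miR-191-5p: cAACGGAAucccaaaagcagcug
miR-191-3p: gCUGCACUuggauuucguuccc
miR-140-3p: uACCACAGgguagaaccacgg
miR-149-5p: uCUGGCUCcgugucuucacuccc
miR-149-3p: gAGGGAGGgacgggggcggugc
miR-425-5p: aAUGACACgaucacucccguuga
miR-425-3p: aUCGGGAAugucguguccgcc

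These 9 arms, from 5 of the genes, carry 9 distinct seeds. The arms of Mir151 and miR-140-5p are not analysed here. They run from 21 to 23 bases. Their GC content spans 47.8% in miR-425-5p to 81.8% in miR-149-3p.

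The hairpins of Mir191 and Mir425 are shown because both come from 1 short stretch of chromosome 9 and were counted very differently. Capitals mark the mature arms.
Mir191 hairpin: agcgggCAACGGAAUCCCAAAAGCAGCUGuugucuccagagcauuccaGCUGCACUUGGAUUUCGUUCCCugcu
Mir425 hairpin: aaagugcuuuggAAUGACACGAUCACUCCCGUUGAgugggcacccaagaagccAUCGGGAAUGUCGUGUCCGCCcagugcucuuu

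The libraries held 4134880 counted reads in replicate 1 and 3219740 in replicate 2, out of 19726010 and 16764463 reads. Reads aligned to several loci made up 70.4% and 73.3% of all reads, and the layout of the tables places them in no gene. Every level, and every place among all microRNA genes, thus covers only reads placed at a single locus. Genes that share a mature arm with another locus can be undercounted. Striated muscle microRNAs were set against the tissue label. All 9 listed genes had at least 10 counts in both libraries, led by Mir206 at 27262 ± 2019 CPM. All listed leukocyte, red cell, smooth muscle, endothelium and liver genes reached that count too, so it cannot decide the label. The striated list held 2.74% of counted reads in replicate 1 and 3.04% in replicate 2. Smooth muscle held 8.53% and 9.36%, and endothelium 8.54% and 9.58%. The remaining marker lists each held less than the striated list. The limit on genes that share a mature arm bears on numbered copies such as Mir1a-1, Mir1a-2, Mir133a-1 and Mir133a-2. These had 51, 1301, 113 and 13 counts in replicate 1. The shares of the lists therefore do not rank the cell types. Under TMM scaling Mir126a, the only endothelium marker, and the summed smooth muscle and striated muscle markers were lower in replicate 1. Their log2 ratios of replicate 1 over replicate 2 were −0.33, −0.30 and −0.32, though Mir133a-1 of the striated list had 0.16. The leukocyte, red cell and epithelium sums were lower too, at −0.21, −0.13 and −0.04, but not every marker in them was. Mir223 of the leukocytes had 0.37 and Mir144 of the red cells 0.006, while the other markers of these lists were lower. In the epithelium list only Mir203 was lower, at −0.08 with 908 and 668 counts. Mir200a, Mir200b, Mir200c and Mir205 had 0.13, 0.42, 0.63 and 0.93, each on at most 27 counts in a library. The glia and neuron sum and liver went the other way, at 1.62 and 1.97. The glia and neuron list held 0.430% of counted reads in replicate 1 and 0.124% in replicate 2, nearly all from Mir338, with 17718 and 3980 counts. In that list Mir219a-1 had 13 and 11 counts and Mir219a-2 had 38 and 15, with Mir124a-1, Mir124a-2, Mir124a-3, Mir9-1, Mir9-2 and Mir9-3 at 0. These are numbered copies too, and their counts cover only reads placed at a single locus. The liver microRNA Mir122 had 85 counts in replicate 1 and 15 in replicate 2.

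The annotation did not place all 6 genes in introns. Mir139, Mir151 and Mir149 each lay wholly in an intron of a protein-coding gene on the same strand. Mir140 did so in the coding transcripts of its host but also fell inside a retained-intron transcript. Mir191 and Mir425 lay in a long noncoding RNA, and Mir425 lay in an exon of it. Counting a gene as intronic only where no exon of its host overlaps, 3 of the 6 met that description, against 741 of all 2202 microRNA genes (33.7%). With retained-intron transcripts ignored, a definition added after the data were seen, 4 of the 6 did, against 773 of all 2202.

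Mir139 (ENSMUSG00000065446.1) spans 101475376 to 101475443 of chromosome 7, plus strand. Its host Pde2a encodes a phosphodiesterase that degrades the messengers cAMP and cGMP. In the coding Pde2a transcript of 32 exons that spans it, the hairpin sits in intron 2, of 29902 bases, at 23907 bases past the upstream exon and 5927 before the next. All 10 Pde2a transcripts that span it read it as intron. The coding gene Gm45837 also spans it on the same strand, in an intron that ends at the same base, 101481370.

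Mir151 (ENSMUSG00000065612.1) maps to chromosome 15 from 73254815 to 73254882 on the minus strand. Its host Ptk2 encodes focal adhesion kinase, which signals from integrin contacts, including those that tie the contractile apparatus of muscle to the matrix. In a coding transcript of 34 exons the hairpin lies in intron 23, 2151 bases past the upstream exon, in an intron of 14556 bases. The noncoding gene 1700085D07Rik covers it on the other strand.

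Mir149 (ENSMUSG00000065470.1) runs from 92850378 to 92850443 of chromosome 1, plus strand. Gpc1, its host, encodes glypican-1, a heparan sulfate proteoglycan of the cell surface. Only 1 of 5 Gpc1 transcripts spans the hairpin, which lies in intron 1 of 21249 bases and 2903 bases before the following exon.

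Mir140 (ENSMUSG00000065439.1) covers bases 107551244 to 107551313 of chromosome 8, plus strand. Wwp2, its host, encodes a ubiquitin ligase, and in mouse Mir140 is best known from cartilage, where its loss disturbs skeletal growth. In a coding transcript of 24 exons the hairpin lies in intron 16, which is 2141 bases long, with 1108 bases before it and 963 after it. The single-exon retained-intron transcript contains all 70 bases of the hairpin. Another retained-intron transcript of Wwp2 begins 23 bases after its end.

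On chromosome 9, plus strand, Mir191 (ENSMUSG00000105497.1) extends from 108568319 to 108568392, and Mir425 (ENSMUSG00000065579.1) follows on the same strand from 108568777 to 108568861. In human, this pair is placed in an intron of DALRD3. Its protein takes part in tRNA methylation. In GENCODE M21 the mouse gene Dalrd3 starts at 108569886, which is 1024 bases past the end of Mir425, so neither hairpin lies within it. Both lie instead in the long noncoding RNA 4833445I07Rik, of 1642 bases. Its single-exon transcript contains both hairpins, which stand 384 bases apart. In the other transcript Mir191 falls in the only intron, of 303 bases, and the transcript ends 2 bases before Mir425.

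**Figure D1:**
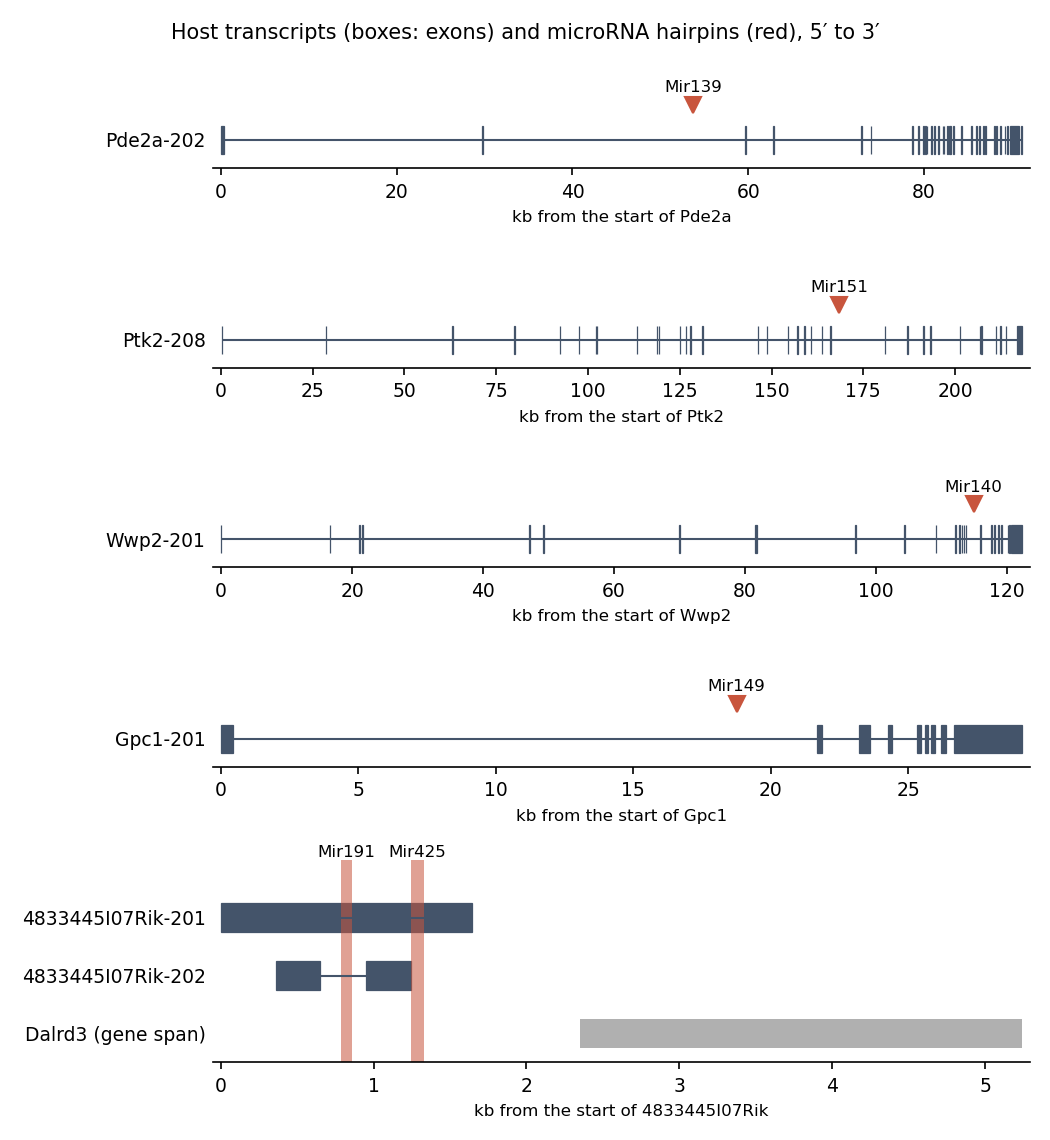
Position of each hairpin (red) in its host transcript, drawn 5′ to 3′ with distance from the host gene's start in kb and boxes for exons; Dalrd3 is drawn as its whole gene span. Mir139, Mir151, Mir140 and Mir149 sit in introns of the transcripts drawn, while Mir191 and Mir425 sit upstream of Dalrd3 within 4833445I07Rik.

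Together the 6 genes held 2.72% of counted reads in replicate 1, with a 95% interval of 2.71% to 2.74% by the exact Clopper-Pearson method. In replicate 2 they held 2.73%, with 2.71% to 2.75%. These intervals overlap, and the mean was 2.73% ± 0.00414. That small SD depends on the library size: without the most abundant gene in it the share was 3.14% ± 0.0410. Such intervals cover counting error alone. They treat each read as a separate molecule, which PCR copies are not, so they can be too narrow even for that. All 6 had at least 10 counts in both libraries, as did 13.4% of all genes. Since the genes were chosen for their levels, their rank is a description.

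Mir139 had the most counted reads of the 6, with 28309 counts in replicate 1 and 21887 in replicate 2. These are 6846 and 6798 CPM, a mean of 6822 ± 34.4 CPM, and place 25 among all microRNA genes in both libraries. Both values lay above those of the other 5 genes. Their closeness belongs to total-count scaling: the SD was 524 CPM with TMM and 703 CPM with DESeq2 size factors.

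Mir191, a microRNA of broad expression often used as a reference in human assays, had 23532 counts in replicate 1 and 17468 in replicate 2. Its CPM values were 5691 and 5425, with a mean of 5558 ± 188. Mir151 had 22317 and 16566 counts, or 5397 and 5145 CPM, with a mean of 5271 ± 178. Replicate 1 had the higher CPM for both genes, a direction that turned under the other library scalings described further on, and the values of Mir191 in replicate 2 and Mir151 in replicate 1 nearly met.

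Mir140 had 20309 counts in replicate 1 and 15604 in replicate 2, which are 4912 and 4846 CPM. Its mean was 4879 ± 46.2 CPM, and the SD was 353 CPM with TMM scaling and 481 CPM with DESeq2 size factors.

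Mir149, reported in mouse muscle to repress Parp2 and to favour mitochondrial biogenesis, had 15358 counts in replicate 1 and 14414 in replicate 2. Its CPM was 3714 in replicate 1 and 4477 in replicate 2, with a mean of 4096 ± 539. It was the only one of the 6 whose CPM was higher in replicate 2. Its SD was 13.2% of the mean, against 0.504% to 7.83% for the other 5. Under TMM and DESeq2 scaling too its SD was the largest of the 6, at 875 and 984 CPM.

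Mir425 stood apart below the others, with 2841 counts in replicate 1 and 1980 in replicate 2. Its 687 and 615 CPM averaged 651 ± 51.0, in place 75 by mean level, while the other 5 took places from 25 to 34.

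**Figure D2:**
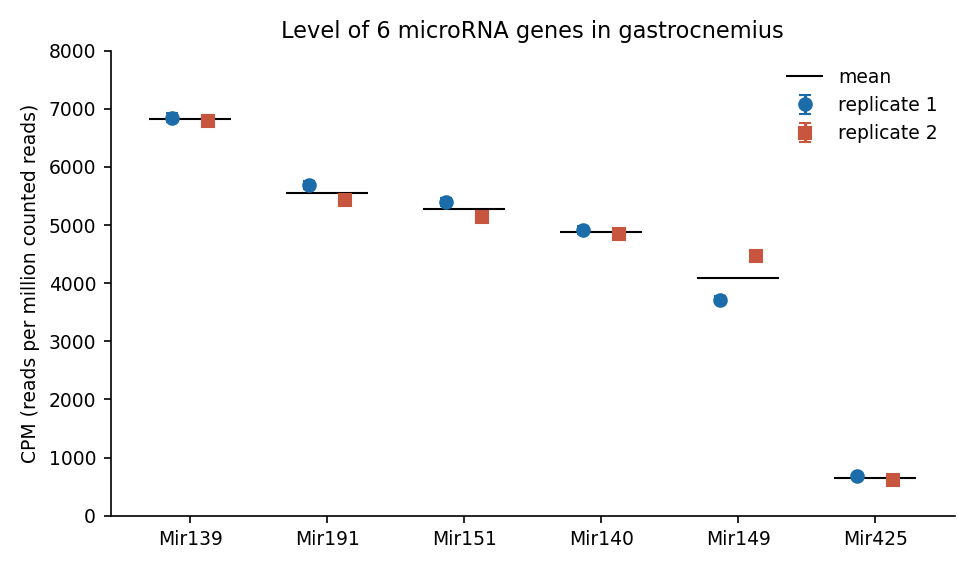
Level of each gene in replicate 1 (circles) and replicate 2 (squares), in CPM on a linear axis from 0, with a line at the mean and exact 95% counting intervals, most of them smaller than the symbols. Mir139 is highest at a mean of 6822 CPM, Mir149 has the widest gap between libraries, and Mir425 is lowest at 651 CPM.

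The order Mir139, Mir191, Mir151, Mir140, Mir149, Mir425 was the same in both libraries. It is an order of counted reads, as are all ratios between genes given here. How evenly different sequences enter a library was not measured, and neither SDs nor counting intervals show it. For each neighbouring pair the mean log2 ratio within a library was set against the sum of the SDs of log2 CPM of the 2 genes. With 2 libraries the smallest exact two-sided p is 0.5, so no test was made. Of 5 neighbouring pairs, 4 differed beyond that spread and 1 did not. The ratios do not depend on library scaling but the SDs do: with TMM or DESeq2 scaling 2 of the 5 pairs did, Mir139 over Mir191 and Mir149 over Mir425. Set against the SD of the ratio itself, all 5 steps were larger. These 3 alternatives were added after the data were seen.

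Mir139 exceeded Mir191 by a log2 ratio of 0.27 in replicate 1 and 0.33 in replicate 2 (mean 0.30 ± 0.04). Mir151 exceeded Mir140 by 1.10-fold and 1.06-fold (0.11 ± 0.04), within the summed SD of 0.17 under TMM scaling. Mir140 exceeded Mir149 by 1.32-fold in replicate 1 but by 1.08-fold in replicate 2 (0.26 ± 0.20), so the size of this step differed between the libraries, and it lay within the summed SD of 0.41 under TMM scaling. Mir149 exceeded Mir425 by 5.41-fold and 7.28-fold (2.65 ± 0.30).

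Mir191 exceeded Mir151 by 1.05-fold in each library, a log2 ratio of 0.08. The counting interval of that ratio was 1.04 to 1.07 in replicate 1 and 1.03 to 1.08 in replicate 2. The step was smaller than the 0.10 by which the 2 genes' levels spread between libraries, although the ratio itself hardly varied between the libraries.

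Mir191 and Mir425 share a locus and a strand, yet Mir191 was counted 8.28-fold above Mir425 in replicate 1 and 8.82-fold in replicate 2. The counting intervals were 7.97 to 8.61 and 8.42 to 9.25. The mean log2 ratio was 3.10 ± 0.06, far beyond the summed SD of 0.16. The pair together took 0.638% of counted reads in replicate 1 and 0.604% in replicate 2, of which Mir425 was the minor part.

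The count of Mir191 depends on strand. Another microRNA gene, Gm24083, is annotated on the minus strand from 108568295 to 108568414 and encloses Mir191. Its own strand had 0 counts in both libraries. In the column that ignores strand, reads over both genes are ambiguous, and Mir191 was listed at 0 in both libraries there. Of 64 microRNA genes with another on the opposite strand, 25 had at least 10 counts in both libraries, and 24 of these 25 were at 0 in that column. Mir191 was the only one of the 6 genes concerned: the other 5 had the same counts in both columns. None of the 6 had a read on the strand opposite to its own.

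Features of the hairpins were then described. None of the 6 hairpins held a stretch of 20 bases found on the same strand in another annotated hairpin, while 25.8% of the 295 genes with at least 10 counts in both libraries did. Copies outside annotated hairpins were not examined. Hairpin lengths ran from 66 bases for Mir149 to 85 for Mir425, with a median of 84 over the 295 genes. GC content ran from 52.9% for Mir140 to 68.2% for Mir149, above the median of 50% over the 295 genes and of 50.8% over all 2202 genes. The folding energy computed by RNAfold, per base, was lowest for Mir151 at −0.61 kcal/mol and highest for Mir425 at −0.37 kcal/mol, against a median of −0.43 kcal/mol over the 295 genes.

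Seed relatives elsewhere in the genome had few counts. The seed of miR-425-5p recurs in miR-489-3p, and Mir489, known in mouse from quiescent muscle stem cells, had 9 counts in replicate 1 and 5 in replicate 2. The seed of miR-140-3p recurs in miR-497b, whose gene Mir497b had 0 and 2 counts. The seed of miR-149-3p recurs in arms of Mir7016, Mir1943, Gm27775 and Gm27740. Among these, Mir1943 had 7 and 3 counts, Mir7016 had 2 and 0, and both Gm genes had 0. The remaining 6 arms had no seed relative in the RefSeq table.

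Set among all microRNA genes by position, the intronic class held 41.8% ± 0.625 of counted reads, 41.4% in replicate 1 and 42.3% in replicate 2. Genes with an exon overlap or a noncoding host held 35.3% ± 0.146, and genes with no host on their strand 22.9% ± 0.771. Mir139, Mir151 and Mir149 took places 9, 10 and 12 of 741 in the intronic class, of which 101 had at least 10 counts in both libraries. The leading genes of that class were Mir378a, in the metabolic coactivator gene Ppargc1b, at 130385 ± 10039 CPM, Mir126a, in Egfl7 and the overlapping Gm20532, at 90623 ± 7368 CPM, and Mirlet7g, in Wdr82, at 49724 ± 1188 CPM. Mir191, Mir140 and Mir425 took places 11, 13 and 26 of 474 in the class with an exon overlap or noncoding host.

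**Figure D3:**
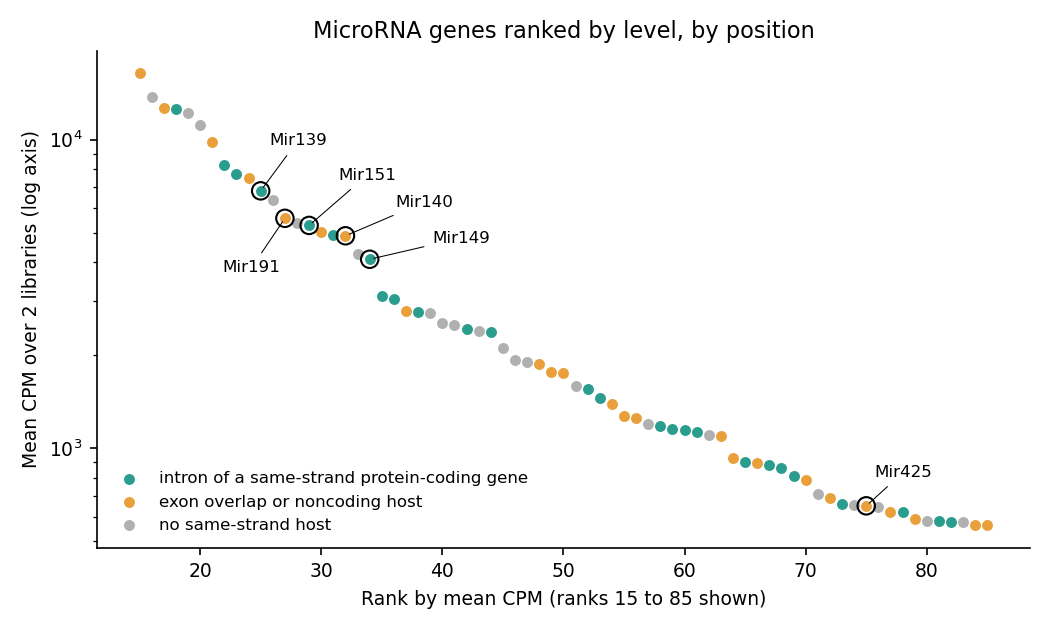
Mean CPM over both libraries (log axis) against rank for the microRNA genes in places 15 to 85, coloured by position relative to a host on the same strand, with the 6 genes circled. Mir139, Mir191, Mir151, Mir140 and Mir149 fall in places 25 to 34, among genes of all 3 position classes, and Mir425 falls in place 75.

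The genes outside the 6 most alike in level were found by distance in log2(CPM + 1) over the 2 libraries. Nearest to Mir140 was Mirlet7f-2, in an intron of Huwe1, at 4909 ± 191 CPM and a distance of 0.044. Nearest to Mir425 was Mir872, in an intron of Ift74, at 658 ± 72.3 CPM and a distance of 0.049. Among genes outside the 6, Mirlet7f-2 was also nearest to Mir151, at 0.146, and Mir379 to Mir191, at 0.198, with 5946 CPM in replicate 1 and 4764 CPM in replicate 2. Mir195a was nearest to Mir139, at 0.187, and Mir10a to Mir149, at 0.201. With 2 libraries such likeness describes counted reads alone. These leave out reads aligned to several loci, which bears on duplicated genes such as Mirlet7f-2.

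Between the 2 libraries, the log2 ratio of CPM + 1, replicate 1 over replicate 2, was taken with TMM scaling in the 261 genes whose mean reached 10 CPM. None of the 6 genes passed 1.5-fold, where 10.3% of all tested genes did, 8.43% higher and 1.92% lower in replicate 1. Of the 165 genes averaging 100 CPM or more, a level that all 6 exceed, 2 passed 1.5-fold. Past 1.2-fold was 1 of the 6, Mir149, lower in replicate 1, where 40.6% of all tested genes were, 24.9% higher and 15.7% lower. None passed 2-fold, where 5.36% did, 4.98% higher and 0.383% lower. The shares at 1.2-fold and 2-fold cover all 261 genes, down to 10 CPM, and were not taken among genes at the level of the 6. Each ratio rests on 1 library per side and has no replicate check, and edgeR was used for scaling alone.

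Mir149 had the largest ratio of the 6, at 3505 TMM-scaled CPM in replicate 1 and 4744 in replicate 2. Its log2 ratio was −0.44, with a counting interval of −0.47 to −0.40, a level 1.35-fold lower in replicate 1. It ranked 44 among the 261 genes by absolute ratio. Of 83 other genes at or above 500 CPM on average, a minimum chosen after the data were seen, 4 had a larger absolute ratio under TMM, 28 under total counts and 2 under DESeq2 size factors. Whether the marker differences between the libraries bear on this was not tested.

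Mir139 and Mir140 had log2 ratios of −0.16 and −0.15. Mir191 and Mir151 both had −0.10. Mir425 had −0.01, with a counting interval of −0.09 to 0.08 that includes 0. The median over the 6 was −0.12, against 0.05 over all 261 genes, and the median absolute ratio was 0.12, against 0.18. Among the 83 other genes at or above 500 CPM the median was −0.00374 and the median absolute ratio 0.14, close to that of the 6.

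The sign of these ratios depends on scaling for 5 of the 6. Scaling to the total of counted reads shifted the median of all tested genes to 0.21, and DESeq2 size factors put it at −0.00262. Under total-count scaling Mir139, Mir140, Mir191, Mir151 and Mir425 turned positive, at 0.01, 0.02, 0.07, 0.07 and 0.16, and under DESeq2 size factors all 6 were negative. Mir149 stayed negative under all 3, at −0.44, −0.27 and −0.49. All 6 lay below the median of all tested genes. A scaling moves the genes and that median almost equally, so this is a single observation and not one per scaling.

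**Figure D4:**
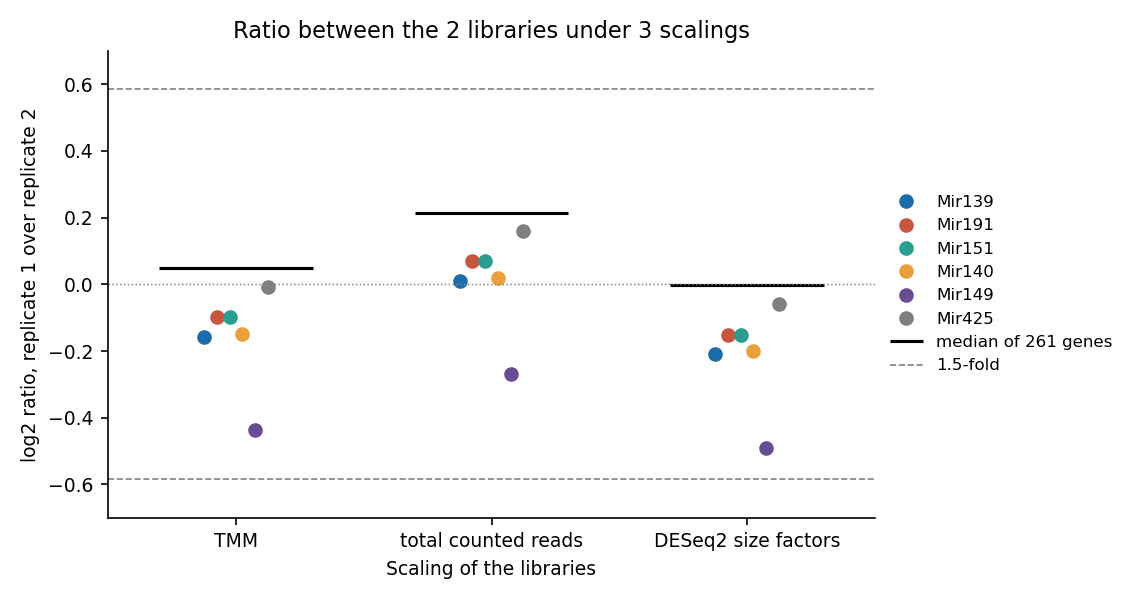
Log2 ratio of replicate 1 over replicate 2 for each gene under TMM, total-count and DESeq2 scaling, with a bar at the median of the 261 tested genes and dashed lines at 1.5-fold. All 6 genes lie within 1.5-fold and below the bar, which moves with them from one scaling to the next, and Mir149 lies lowest, between −0.49 and −0.27.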

How the data were processed

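Small RNA of 2 gastrocnemius libraries was sequenced as microRNA-seq. The authors deposited whole-number read counts for 2202 microRNA genes in 3 columns per library, read from the layout as ignoring strand, following the gene's strand and taking the opposite strand. Assembly mm10 and annotation GENCODE M21 are per the deposited file descriptions, and the aligner and counting program were not given in these sources. The 4 rows naming no gene stayed out of library sizes. Their shares were 7.05% and 6.02% unmapped, 70.4% and 73.3% aligned to several loci, and 1.63% and 1.51% outside any gene. Nothing says that the 2 RNA samples were prepared separately beyond the labels naming 2 males. The libraries differed beyond sampling noise (chi-square over 362 genes, 111.5 for each degree of freedom).

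CPM came from same-strand counts. Pair ratios used counts + 0.5, and library ratios used CPM + 1 with TMM factors of edgeR 4.0.16. DESeq2 1.42.0 gave alternative size factors. The ratio script was tested on simulated Poisson counts with known folds, and the ratios were centred on the genes left unchanged. That test therefore does not check the scaling, and it leaves out the spread between the real libraries. All identifiers were found in GENCODE M21. The drawn host transcript is the one with most exons that spans the hairpin. RNAfold 2.7.2 folded the annotated hairpins. The genes and lists were chosen with earlier results of these data known. Named genes are the 6 genes, other microRNA genes inside their hosts, seed relatives, the 2 genes most alike in level to each, cell type markers and the 3 highest other intronic genes. Alternatives were the column ignoring strand, other scalings, library sizes, pseudocounts, minimums, folds and class definitions, and each library alone.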

Additional observations from a re-analysis of the deposited data

Results flagged for a closer look

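Reads counted on the strand opposite to Gm24083, the microRNA gene that encloses Mir191 on the other strand, numbered 23532 in replicate 1 and 17468 in replicate 2, above the 3 reads that a count of 0 allows. They stand out because that column is not used for any level given here. The numbers equal the same-strand counts of Mir191. For the 6 genes themselves the opposite-strand count was 0 in both libraries, with an upper limit of 0.726 CPM (replicate 1) or 0.932 CPM (replicate 2) for 3 reads.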

How the results depend on the processing

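With 1 group of 2 libraries there is no test, and no paired analysis was possible because no groups are compared. In the column that ignores strand, the log2 ratio of Mir191 over Mir425 turned to −12.21, since Mir191 is listed at 0 there. In that column the 6 genes held 2.89% of counted reads and the intronic class 24.4%. Fewer reads are counted there, 3146804 in replicate 1 and 2386117 in replicate 2, so the first share rose although Mir191 was lost. The leading intronic genes were lost as well: Mir378a had 0 counts in both libraries, and Mir126a had 4 and 1. Without the most abundant gene in the library size the shares of the 6 genes and the intronic class were 3.14% and 33.1%, and over all reads 0.548% and 8.40%. The intronic class held 45.7% with hosts of any biotype, 59.7% with any overlap of a same-strand protein-coding gene, and 42.5% with retained-intron transcripts ignored, added after the data were seen. At 1.2-fold, 1 gene of the 6 passed between libraries in place of 0 at 1.5-fold, and 0 passed under the other scalings, minimums and pseudocounts tried or at 2-fold. All tested genes past 1.5-fold were 27, 38 under total counts, 26 under DESeq2 size factors, 2 of 165 at 100 CPM and 134 of 2202 without a minimum. Either library alone gave 2.72% to 2.73% for the 6 genes, 41.4% to 42.3% for the intronic class, 3.05 to 3.14 for the ratio and the same order of 5 pairs. Of the 5 ordered pairs, 4 kept their direction in the column that ignores strand. With Mir191 at 0 and the other 5 genes unchanged there, this was fixed in advance and does not check the order. With TMM or DESeq2 scaling of the SDs, added after the data were seen, 2 of 5 neighbouring pairs differed beyond the spread, against 4 with total counts and 5 by the SD of the ratio itself. The mean level of all 6 genes moved by less than 1 SD under TMM and DESeq2 scaling. Depth limits Mir425 most, at 1980 counts in replicate 2, and reads aligned to several loci and CAST alleles that differ from mm10 were not analysed here.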
